A study of Mus musculus with 76 samples.

Results

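Unexposed alveolar septa of Noxo1 knockout mice were compared with unexposed septa of wild-type mice. The members were chosen by their titles alone, as control septa of either genotype at 3 or 8 months. They were 19 of the 76 arrays of the series, 10 from knockout and 9 from wild-type mice. The series asks about NOXO1 in smoke-induced emphysema and pulmonary hypertension, and measured septa and vessels microdissected from the lungs of 40 mice. The groups used here were knockout at 3 months (n = 5), wild-type at 3 months (n = 4), knockout at 8 months (n = 5) and wild-type at 8 months (n = 5). Each array came from another mouse. The protocol names the line C57BL/6-Noxo1(tm1881_17.2Arte) for all mice and does not say which part of the gene was deleted, or whether wild-type mice were littermates. Smoke exposure of the other mice started in week 12, at 140 mg particles per cubic metre for 6 hours per day on 5 days per week. Their septa, read beside those of the controls, gave 5 arrays for each genotype and time. The handling of the controls is not described, so 3 and 8 months are the labelled times of mice that were not exposed to smoke. All groups compared here share the microdissection and the amplification of small amounts of RNA before labelling.

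NADPH oxidases are membrane enzymes that pass electrons from NADPH to oxygen and so make superoxide. NOX1 is the catalytic subunit of one of them, NOXO1 is the cytosolic organiser that brings the complex together at the membrane, NOXA1 is its activator, and CYBA and the small GTPase RAC1 complete it. The complex is best known from colon epithelium and vascular smooth muscle, and its oxidants act in signalling rather than in killing microbes, which is the task of the related phagocyte oxidase built around CYBB.

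The signal is given as log2 intensity, and differences are knockout minus wild-type in log2 units, with months as a factor in the fit unless a time is named. Odorant and vomeronasal receptor genes, which are mostly silent outside sensory epithelium, served as a guide to dim signal. Over the 19 arrays the 95th percentile of the mean signal of these 1322 genes was 3.28, called the receptor level here. Markers of septal cells were detected, and so were those of nearby tissue. All 12 measured markers of type 1 pneumocytes, all 14 of type 2 pneumocytes and all 13 of capillary endothelium lay above the receptor level. Of all genes 62.3% did so in at least 1 genotype. All 10 markers of adventitial fibroblasts, 12 of 13 of smooth muscle and pericytes and 8 of 11 of club and goblet cells did too. These counts therefore do not set septa apart from the tissue around them. In bulk tissue of this kind, fewer cells of a type and less RNA per cell cannot be told apart.

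Some arrays stood apart from the rest or from their labels. Each array was correlated with the other 18, and the medians ran from 0.852 to 0.902. The lowest 3 were wild-type 8 months replicate 2 (0.852), knockout 8 months replicate 4 (0.855) and knockout 8 months replicate 5 (0.863). The sex pattern of Xist, the RNA of the inactive X chromosome, and the Y-linked Eif2s3y was female in 2 of 10 knockout and 2 of 9 wild-type septa arrays. Of 17 mice with arrays of both tissues, 15 had the same pattern in septa and vessel and 2 had not. Mouse 7, knockout 8 months replicate 2, was male by its septa (Xist 2.07) and female by its vessel (Xist 12.9), and mouse 29, wild-type 8 months replicate 4, was female by its septa (Xist 12.5) and male by its vessel (Xist 3.45). Whether the septa or the vessel arrays of these mice carry the wrong label was not tested, so the libraries labelled as theirs are included. The counts over all genes of unexposed septa and some of the values that moved are also given without them.

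Noxo1 itself gave a weak check of the labels, because its signal was dim and 1 feature represents it. In knockout septa at 3 months the 5 arrays read 3.76, 2.29, 1.45, 2.98 and 2.66. The 4 wild-type arrays of that time read 2.82, 4.13, 5.55 and 3.43. At 8 months the knockout arrays read 2.29, 3.63, 2.47, 2.79 and 1.61 and the wild-type arrays 3.57, 4.98, 2.87, 2.41 and 1.39. Wild-type arrays held the highest values at both times, but the genotypes overlapped at both, and the lowest value of all 19 was a wild-type one. The mean was 2.59 ± 0.75 (SD, n = 10) in knockout and 3.46 ± 1.29 (SD, n = 9) in wild-type septa, and the knockout mean lay below the receptor level.

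The fitted difference in Noxo1 was -0.90 ± 0.46 (SE), with a 95% interval from -1.84 to 0.05 and an adjusted p of 0.9999 in limma. By unadjusted p Noxo1 ranked 996th of 20710 genes. An exact two-sided permutation test that redrew genotype within each time gave a mean difference of -0.92 and p = 0.073, or 0.119 after adjustment over 3 tests. At 3 months the exact test gave -1.35 and p = 0.0794 (adjusted 0.119), where 0.0159 is the smallest p that 5 against 4 mice allow. At 8 months the exact test gave -0.49 and p = 0.524, with 0.00794 as the smallest p possible. Without the septa arrays of mice 7 and 29 the mean difference was -1.13 and the exact p 0.0391, not adjusted, so the call at an unadjusted 0.05 turned on those arrays. In smoke-exposed septa, which come from other mice, Noxo1 differed by -1.71 ± 0.44 with an unadjusted limma p of 0.000627. The sex pattern was female in 7 of the 10 exposed knockout and 3 of the 10 exposed wild-type arrays, and with it as a covariate the Noxo1 difference there was -1.37 ± 0.48 (unadjusted limma p 0.00818). The difference between the unexposed and the exposed comparison was not past the threshold (unadjusted limma p 0.223). In unexposed vessels Noxo1 differed by 0.032 ± 0.70. That fit includes the vessel arrays of mice 7 and 29, which read 7.03 and 5.88, and it was not run without them.

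**Figure D1:**
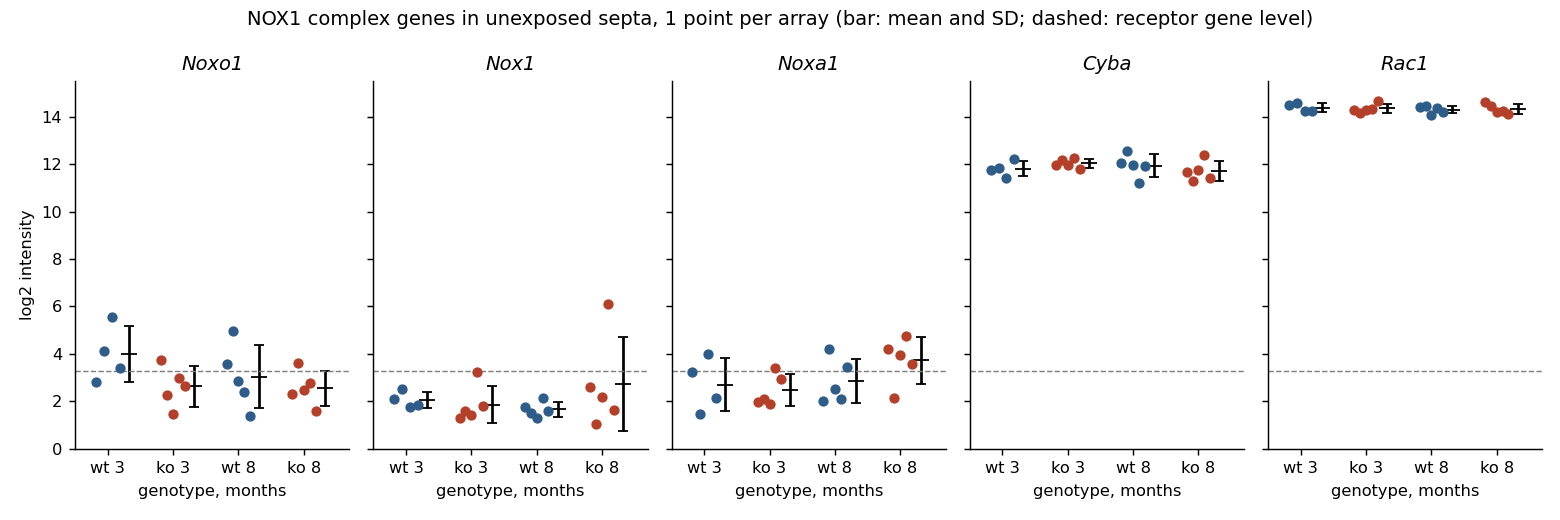
Signal of the 5 genes of the NOX1 complex in unexposed septa, by genotype and months (wt, wild-type in blue; ko, knockout in red). Each point is 1 array, the bar gives the group's mean and SD, the y axis is log2 intensity, and the dashed line is the receptor level of 3.28. Noxo1, Nox1 and Noxa1 scatter around or below that line with overlapping genotypes, while Cyba and Rac1 lie far above it and differ by less than their spread.

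No partner of NOXO1 differed past the test. Nox1, the catalytic subunit, lay below the receptor level in all but 1 array. Its means were 2.29 in knockout and 1.83 in wild-type septa (0.47 ± 0.44), and the exception was a knockout array at 6.10. Without the 3 arrays of lowest correlation the difference was 0.001. Noxa1, the activator, differed by 0.34 ± 0.43, with both genotype means below the receptor level. Each of the 2 partners above the receptor level had nearly the same mean in both genotypes. Cyba, the membrane partner of several NOX enzymes, had a mean of 11.9 in each genotype and differed by -0.018 ± 0.16, with an interval from -0.35 to 0.31. Rac1 had a mean of 14.3 in each and differed by -0.006 ± 0.085, with an interval from -0.18 to 0.17. For Rac1 the data therefore limit any genotype difference to less than 0.2 log2 units in either direction at 95% confidence, whereas the intervals of Nox1 (-0.44 to 1.38) and Noxa1 (-0.55 to 1.24) leave room for more than a doubling.

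The phagocyte oxidase and the other family members were likewise without a call. Cybb, the catalytic subunit of the phagocyte oxidase, differed by 0.15 ± 0.30. Its organiser Ncf1 differed by 0.51 ± 0.34, with wild-type arrays from 6.01 to 8.39 (median 6.99) and knockout arrays from 6.50 to 8.75 (median 7.89). Ncf4 differed by -0.11 ± 0.43 and Rac2, the GTPase of blood cells, by 0.11 ± 0.33. Nox4, an oxidase of fibroblasts and endothelium that needs no organiser, differed by 0.16 ± 0.28. Nox3, Duox1, Duox2 and Duoxa2 were below the receptor level in both genotypes. Duox1 differed by -0.52 ± 0.36 and Duox2 by -0.54 ± 0.38, so both intervals included 0. Sh3pxd2a encodes a podosome scaffold that can act as an organiser of NOX enzymes. Its difference was 2.21 at 3 months and -1.39 at 8 months, and the difference between the times had an unadjusted p of 0.00335 that did not pass adjustment. Of the 12 measured genes of this list 7 were above 0 and 5 below, with a median of 0.059, against a median of 0.0055 over all 20710 genes.

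Across the array no gene was called for genotype. In limma 0 of 20710 genes (0%) passed an adjusted p of 0.05, and the lowest adjusted p was 0.9999. There were 772 genes with an unadjusted p under 0.05, 3.73% of those tested, 400 higher and 372 lower in knockout septa, where 5% would be 1036 genes. Differences were centred on 0, with 50.8% of genes above it. No gene had knockout and wild-type arrays that did not overlap (0 of 20710, 0%). Without the arrays of mice 7 and 29, 0 genes passed and 793 had an unadjusted p under 0.05, and without the 3 arrays of lowest correlation 0 passed and 720 did.

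How large a difference the 19 arrays could have shown depends on the gene. Of the named genes 12182 had a mean above the receptor level in at least 1 genotype, and the median SE of their difference was 0.37. For 6204 of them (50.9%) the 95% interval stayed within 1 log2 unit of 0, and for 2208 within 0.585 log2 units. For the other 5978 the interval reached beyond 1 log2 unit, so a change of that size lay within what the data allow. In data simulated for this comparison, with 50 genes shifted at each size, the fit called 96% of genes shifted by 3 log2 units, 78% at 2, 30% at 1 and 2% at 0.5. The genes of all sizes were shifted in the same data, with noise independent between genes. Adjustment is easier to pass where many genes differ, so these shares run high if few genes do. A difference over 1 log2 unit was estimated for 320 genes, none of which was called.

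**Figure D2:**
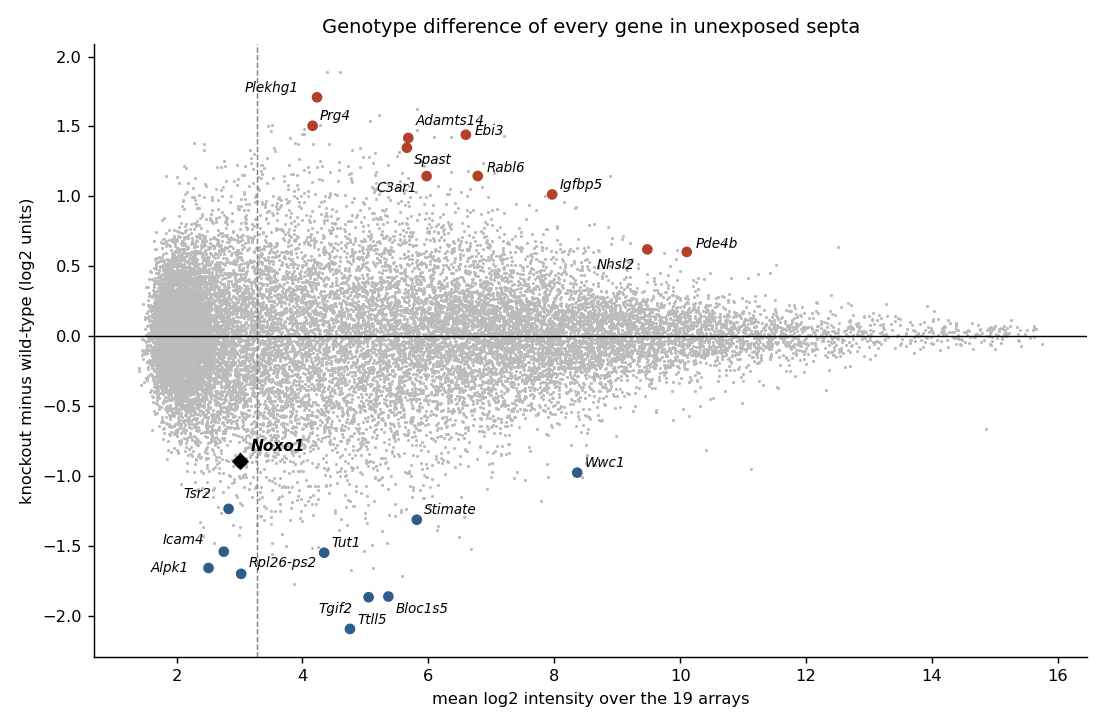
Knockout minus wild-type difference (y axis, log2 units) against the mean log2 intensity over the 19 arrays (x axis), with 1 grey point for each of the 20710 genes. Red and blue points are the 10 genes of lowest unadjusted p in each direction, the black diamond is Noxo1, and the dashed line is the receptor level. Differences spread evenly around 0 and narrow toward the brightest genes, and no point passed adjustment. The spread does not narrow steadily from the dimmest genes on. The median SE was 0.34 over all 20710 genes and 0.37 over the named genes above the receptor level.

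The genes that led the ranking are described as values that did not pass. Each had an adjusted p of 0.9999 in limma, and in every one of the 20 the genotypes overlapped. Since they were picked from 12182 genes for a low p, the sizes of their differences run high by that choice.

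The 10 leading genes higher in knockout septa differed by 0.60 to 1.71. Rabl6, a Rab-like GTPase, had the lowest p of these (0.00119) and differed by 1.15 ± 0.32. Its knockout arrays ran from 5.97 through a median of 7.49 to 8.74 and its wild-type arrays from 4.86 through 6.08 to 7.41. At 8 months the lowest knockout array (7.43) was just above the highest wild-type array (7.41), and groups without overlap made up 0.647% of all genes at that time, while at 3 months the genotypes overlapped. C3ar1, the receptor of the complement fragment C3a, differed by 1.15 ± 0.34 (p 0.00223). Knockout arrays ran from 5.65 through 6.48 to 7.57 and wild-type arrays from 3.87 through 5.46 to 6.20, with the difference at 0.90 at 3 months and 1.36 at 8 months. Pde4b, a phosphodiesterase that breaks down cyclic AMP, ran from 9.91 through 10.3 to 10.8 in knockout and from 9.09 through 9.72 to 10.6 in wild-type arrays. Its difference was 0.60 ± 0.18 (p 0.00204).

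Igfbp5, a binding protein of insulin-like growth factors, differed by 1.01 ± 0.33 (knockout 6.93 to 10.3, wild-type 6.03 to 9.10). Prg4, the lubricant lubricin, differed by 1.51 ± 0.50 and Adamts14, a protease that trims procollagen, by 1.42 ± 0.46. Adamts14 dropped to 0.94 without the 3 arrays of lowest correlation, 1 of which, wild-type 8 months replicate 2, held its lowest value (2.30). Ebi3, a subunit shared by heterodimeric cytokines, ran from 5.87 through 7.47 to 8.14 in knockout arrays and from 2.87 through 5.58 to 7.81 in wild-type arrays (1.44 ± 0.47). Its lowest value lay in the septa array of mouse 29, and without mice 7 and 29 the difference was 1.20. The other 3 were Spast, which severs microtubules (1.35 ± 0.41), Plekhg1 (1.71 ± 0.53), and Nhsl2, a relative of the Nance-Horan syndrome gene (0.62 ± 0.18).

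The 10 leading genes lower in knockout septa differed by -0.98 to -2.09. In 4 of them the knockout mean lay below the receptor level, and a mean above it, needed to be picked, was met in wild-type septa alone. Their low knockout means are thus favoured by the way they were picked. For Alpk1 the wild-type mean was 3.36, just above that level. Alpk1, a kinase that senses a bacterial sugar, had the lowest p of all genes (0.000119) and differed by -1.66 ± 0.37. Every knockout array was between 1.32 and 2.39, all below the receptor level, and wild-type arrays ran from 1.77 through 3.22 to 5.30. Bloc1s5, part of the machinery that forms lysosome-related organelles, ran from 3.35 through 4.39 to 5.77 in knockout and from 4.74 through 6.42 to 7.49 in wild-type arrays (-1.86 ± 0.43). Tgif2, a homeobox repressor in TGF-beta signalling, ran from 2.28 through 4.30 to 5.63 and from 4.80 through 6.31 to 7.27 (-1.87 ± 0.46). The tubulin polyglutamylase Ttll5 had the largest difference (-2.09 ± 0.54), which rests on its choice of feature. The feature brightest over the 19 arrays gave 0.68 in place of it.

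Wwc1, the Hippo pathway scaffold KIBRA, lay well above the receptor level and differed by -0.98 ± 0.29, with knockout arrays from 6.54 to 8.70 and wild-type arrays from 7.92 to 9.87. Without the 3 arrays of lowest correlation the value was -0.65. Stimate, a regulator of store-operated calcium entry, differed by -1.31 ± 0.39 and Tut1, a terminal uridylyltransferase of RNA, by -1.55 ± 0.46. The knockout means of Icam4, an adhesion molecule of red cells (-1.54 ± 0.48), of Tsr2, a carrier of a ribosomal protein (-1.24 ± 0.39), and of Rpl26-ps2 (-1.70 ± 0.42) lay below the receptor level. Rpl26-ps2 is a ribosomal protein pseudogene, and its signal cannot be told apart from that of near-identical copies. Leaving out mice 7 and 29 kept the direction of all 20 leading genes, and their values were 0.829 to 1.26 times those over the 19 arrays. Without the 3 arrays of lowest correlation the values were 0.661 to 1.19 times as large. Since the genes were picked on all 19 arrays, a kept direction is favoured by that choice.

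**Figure D3:**
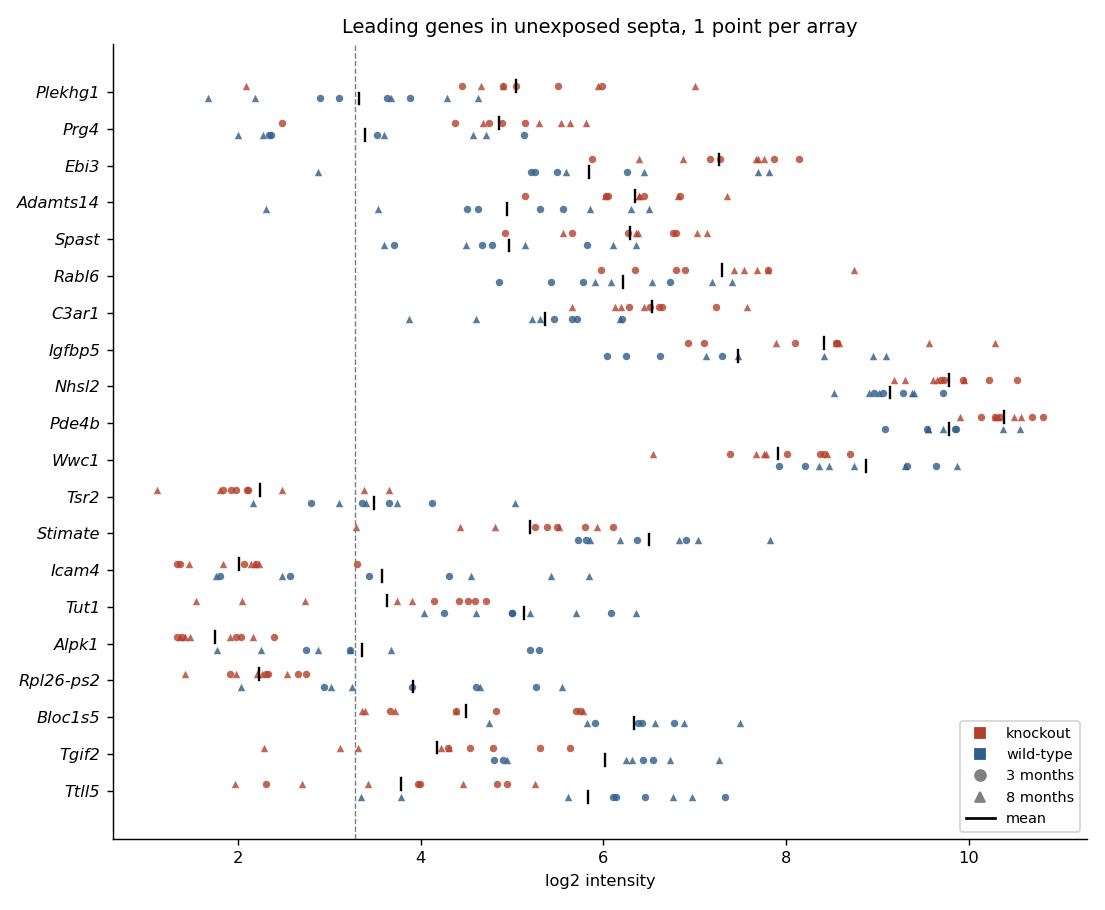
Log2 intensity (x axis) of the 20 leading genes in the 19 unexposed septa arrays, with 1 point per array, red for knockout and blue for wild-type, circles for 3 months and triangles for 8 months. Black bars are the genotype means and the dashed line is the receptor level. In each row the 2 colours overlap, and the lower genes Alpk1, Rpl26-ps2, Icam4 and Tsr2 have knockout means below the dashed line.

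For some genes several features on the array measure the same gene, and those above the receptor level can give a second reading. Of the 27 genes named for the mean comparison and for the times, 17 had 1 feature and 10 had several. In 5 of those 10 all features had the same sign, and in Nhsl2, Pde4b, Tgif2, Ttll5 and Stimate they did not. Of those 5 only Map3k6 had a second feature above the receptor level (mean 7.85), at 0.49 against 0.53. For Pde4b the feature used read a mean of 10.1, and another with a mean of 8.26 differed by -0.061. Other features of Nhsl2 above the receptor level, with means of 6.96, 4.81 and 3.96, differed by -0.15, -0.65 and 0.54. Those of Tgif2, with means of 4.29 and 3.98, differed by -0.87 and 0.485. For Stimate a dimmer feature with a mean of 2.87, below the receptor level, differed by 1.29, opposite to the one used. With the mean of all features of a gene, Tgif2 differed by -0.75, Ttll5 by -0.45, Stimate by -0.01, Nhsl2 by 0.08, Pde4b by 0.15, Prg4 by 0.77 and Adamts14 by 0.75, each at least 1.5 times smaller than the value given above. The second features of Prg4 (mean 1.85), Adamts14 (mean 2.09), Bloc1s5 (mean 2.32) and Ddc (mean 2.96) lay below the receptor level. Their shared sign is thus no second reading. Averaging with such a dim feature shrinks a difference and is no independent reading.

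Genotype was also compared within each time. At 3 months 0 of 20710 genes passed (0%), 668 had an unadjusted p under 0.05 (3.23%), and the lowest adjusted p was 1. Without mice 7 and 29, which are of the other time but share the fit, 0 passed and 688 had such a p. Npr3, the clearance receptor of natriuretic peptides, had the lowest unadjusted p. Its 5 knockout arrays read 8.40, 8.45, 7.90, 9.54 and 9.67 and its 4 wild-type arrays 7.40, 7.09, 7.17 and 7.17, a difference of 1.58 ± 0.35. The groups did not overlap, as was so for 1.18% of all genes at 3 months. At 8 months Npr3 differed by -0.36. Map3k6, a stress-activated kinase, differed by 1.14 ± 0.28 at 3 months and by -0.013 at 8 months. Alpk1 had a mean of 1.82 ± 0.46 (SD, n = 5) in knockout and 4.12 ± 1.33 (SD, n = 4) in wild-type septa at 3 months.

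At 8 months 0 of 20710 genes passed (0%) and 982 had an unadjusted p under 0.05 (4.74%). The lowest adjusted p was 0.827, that of Tgif2, whose knockout arrays read 4.31, 2.28, 4.22, 3.11 and 3.32 and wild-type arrays 4.94, 6.31, 6.73, 6.25 and 7.27 (-2.85 ± 0.58). The groups did not overlap, as in 0.647% of all genes at 8 months. Ddc, the decarboxylase that makes dopamine and serotonin, read 1.33, 3.90, 3.38, 1.16 and 0.99 in knockout and 3.76, 7.57, 6.41, 4.83 and 4.57 in wild-type arrays (-3.28 ± 0.75). Here 1 knockout array, that of mouse 7, lay above the lowest wild-type array, and without the 3 arrays of lowest correlation the difference was -2.02. Odf3b, named after the outer dense fibres of sperm tails, differed by 2.45 ± 0.59, and by 1.39 without those 3 arrays. At 3 months the same fit gave 0.40 for Ddc and -0.11 for Odf3b. Without mice 7 and 29, 0 genes passed at 8 months and 1019 had an unadjusted p under 0.05, with Tgif2 at -2.58, Ddc at -3.86 and Odf3b at 3.06.

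A test of whether the genotype difference itself differed between the times called 0 of 20710 genes (0%), and 846 had a p under 0.05 before adjustment (4.08%). The 3 leading genes were Mrpl54, a mitochondrial ribosomal protein, Adgre4, an adhesion receptor of myeloid cells, and Mir17hg, the host transcript of a microRNA cluster that promotes proliferation. For Adgre4 the group means at 3 months were 5.72 in knockout and 2.70 in wild-type septa, and at 8 months 2.68 and 4.19, a difference of differences of -4.52 ± 1.11. Mir17hg had means of 6.88 against 5.21 at 3 months and 5.24 against 6.69 at 8 months (-3.12 ± 0.77). Mrpl54 had means of 7.70 against 8.55 and then 9.36 against 7.97 (2.25 ± 0.54). Without mice 7 and 29, 0 genes passed and 853 had a p under 0.05 before adjustment, with Adgre4 at -5.55, Mir17hg at -3.49 and Mrpl54 at 2.50. In data simulated in the same way this test called 56% of genes whose difference changed by 3 log2 units and 8% at 2. It could thus miss most changes of moderate size, and more where few genes change.

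Smoke-exposed septa of the 2 genotypes come from other mice and repeat the genotype contrast, with the uneven sex pattern given above for Noxo1. There 0 of 20710 genes passed (0%) and 898 had an unadjusted p under 0.05 (4.34%). With the sex pattern as a covariate 0 passed and 989 had such a p. Of the 20 leading genes of unexposed septa, 9 had the same direction in exposed septa, against 50.4% of the 12182 genes above the receptor level. None of those 9 reached an unadjusted p under 0.05, and the median size of the 20 differences was 1.43 in unexposed and 0.309 in exposed septa. Alpk1 differed by 0.029 ± 0.35 in exposed septa, Tgif2 by 0.37 ± 0.71, C3ar1 by -0.096 ± 0.39 and Rabl6 by -0.27 ± 0.41. Adamts14, higher in unexposed knockout septa, was at -1.14 ± 0.41 in exposed ones. For genotype by exposure 0 genes were called (0%) and 787 had a p under 0.05 before adjustment (3.8%). By that test 13 of the 20 leading genes had an unadjusted p under 0.05, a count that their choice for a large difference in unexposed septa favours.

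Unexposed vessels of 18 mice, 17 of them the same mice, also had 0 called genes (0%), and 898 had a p under 0.05 before adjustment (4.34%). Of the 20 leading genes 8 had the same direction in vessels, against 50.9% of the genes above the receptor level. Tsr2 was lower in knockout vessels by a similar amount, -1.71 ± 0.43 with an unadjusted p of 0.000594, and did not pass adjustment. Bloc1s5 differed by 1.31 ± 0.70 and Ttll5 by 1.67 ± 0.87 in vessels, opposite to septa. All vessel results include mice 7 and 29 and were not computed without them.

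**Figure D4:**
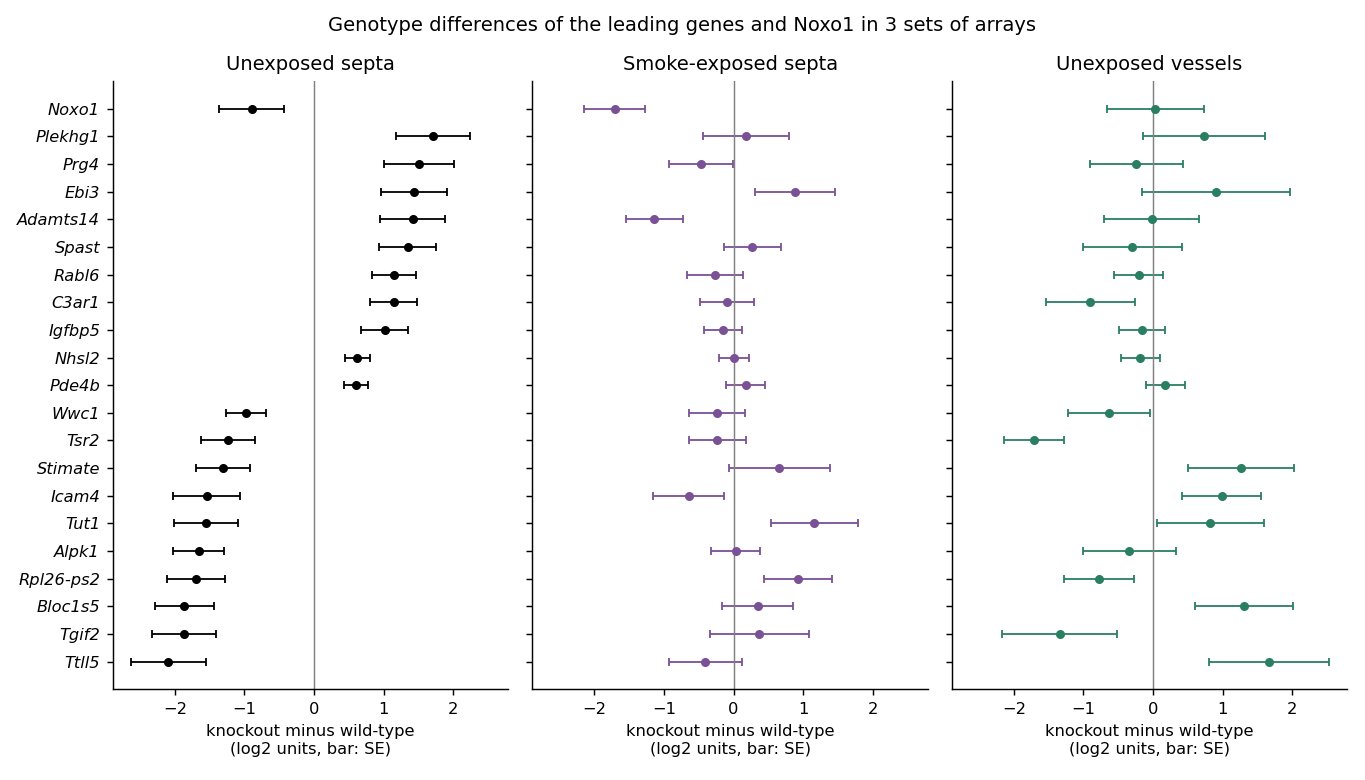
Knockout minus wild-type difference (x axis, log2 units) of Noxo1 and the 20 leading genes in unexposed septa, smoke-exposed septa and unexposed vessels, with bars of 1 SE. The leading genes lie on both sides of 0 in exposed septa and vessels, with 9 and 8 of 20 in the direction of unexposed septa. Noxo1 is below 0 in both sets of septa and near 0 in vessels, where the arrays of mice 7 and 29 are included.

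The lists of pathways and cell types held 532 distinct measured genes apart from the sex-linked ones, and 0 of them passed. An unadjusted p under 0.05 was found for 21 of the 532 (3.95%, against 3.73% of all genes), 10 higher (1.93% of all genes) and 11 lower (1.8% of all genes). Of the 42 lists, here with the sex-linked one, 40 had a median difference within 0.35 log2 units of 0, a bound not set in advance. Outside it lay the erythroid list (0.74) and the sex-linked list (-0.41). Leaving out 1 array moved the median by more than 1.5 times or across 0 in 41 of the 42, among them many medians close to 0. The following values describe the lists and name members that did not pass.

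Marker lists of the cells that line the alveolus had medians close to 0, without a call. The 14 markers of type 2 pneumocytes, the surfactant-making cells, had a median difference of 0.004, and Sftpc, the surfactant protein that marks them, differed by -0.007 ± 0.09. The 13 capillary markers had a median of 0.009. Type 1 pneumocytes, the flat gas exchange cells, had 10 of 12 markers below 0 with a median of -0.10. Among them Ager, a receptor abundant on these cells, differed by -0.52 ± 0.24, with knockout arrays from 9.03 to 10.9 (median 9.92) and wild-type arrays from 9.38 to 11.6 (median 9.98). The list's mean signal was 9.98 ± 0.20 (SD, n = 10) in knockout and 10.1 ± 0.27 (SD, n = 9) in wild-type septa, and the arrays overlapped. In smoke-exposed septa the median of the type 1 list was 0.091.

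Alveolar macrophage markers were mostly higher in knockout septa, without a call. Of 15 measured, 14 were above 0, and the median was 0.34. It was 0.19 without wild-type 3 months replicate 4 and 0.51 without wild-type 8 months replicate 2. Marco, a scavenger receptor, ran from 6.01 through 7.31 to 9.04 in knockout and from 3.08 through 6.51 to 8.30 in wild-type arrays. It differed by 1.24 ± 0.54, and by 0.81 without the 3 arrays of lowest correlation. The integrin Itgax differed by 0.70 ± 0.36 and Pparg, a nuclear receptor these cells depend on, by 0.86 ± 0.49. The list's mean signal per array ran from 5.67 to 8.07 in knockout and from 5.33 to 7.07 in wild-type septa. In smoke-exposed septa the median was 0.26, with Marco at 0.85, Itgax at -0.41 and Pparg at -0.45. Monocyte and interstitial macrophage markers had 3 of 10 above 0 and a median of -0.14, with Adgre1, the macrophage surface marker, at 0.74 ± 0.36. F13a1, a subunit of coagulation factor XIII, was the lowest of that list at -1.18 ± 0.75, and at -0.43 without the 3 arrays of lowest correlation.

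Genes of blood-borne cells differed in both directions. All 6 erythroid genes were above 0, with a median of 0.74, but the medians were 1.29 at 3 months and -0.039 at 8 months. Without wild-type 3 months replicate 3 the median over both times was 0.36. Hbb-bs, a beta-globin gene, differed by 2.51 at 3 months and -0.061 at 8 months. Over both times the mean signal of the erythroid list ran from 7.16 to 11.5 in knockout and from 6.87 to 11.0 in wild-type arrays, with overlap. These ranges include any change between the times, which the fitted difference leaves out. Of 8 platelet genes 7 were below 0, with a median of -0.33, which was -0.14 without wild-type 3 months replicate 4 and -0.52 without mice 7 and 29. Pf4, the platelet chemokine, ran from 2.16 through 6.06 to 7.39 in knockout and from 3.28 through 7.24 to 8.51 in wild-type arrays (-1.36 ± 0.56), and Gp9, part of the receptor for von Willebrand factor, differed by -1.23 ± 0.57. The neutrophil list had a median of 0.085, B and plasma cells 0.085 and T and NK cells 0.069. Cd8a, the coreceptor of cytotoxic T cells, differed by 1.38 ± 0.52 in unexposed and -0.74 in smoke-exposed septa.

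Markers of cells that lie next to septa were measured as a check on the dissection. Club and goblet cells had 6 of 11 markers above 0 and a median of 0.14, while Scgb1a1, the main secretory protein of club cells, differed by -0.66 ± 0.30, Cyp2f2, a detoxifying enzyme, by -0.95 ± 0.44 and Ltf, lactoferrin, by -1.35 ± 0.61. Scgb1a1 ran from 12.7 through 15.2 to 15.8 in knockout and from 14.1 through 15.3 to 15.6 in wild-type arrays. Smooth muscle and pericyte markers had 8 of 13 below 0 and a median of -0.32, with Pdgfrb, the member of lowest p, at -0.34 ± 0.18. That median was -0.10 without mice 7 and 29 and -0.13 without wild-type 8 months replicate 1. Heart muscle genes, which mark the muscle sleeve of pulmonary veins, had 8 of 11 above 0 with a median of 0.19 and 6 of 11 above the receptor level. Nppa, the atrial natriuretic peptide, differed by 1.48 ± 0.54 and Myl4, the atrial myosin light chain, by 0.94 ± 0.46, and in smoke-exposed septa they differed by 1.48 and 0.78. Ciliated cell markers had a median of 0.083 with 5 of 12 above the receptor level. The part of these cell types in other differences was not tested.

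Genes that answer to oxidants were not called. The 24 antioxidant and NRF2 target genes had 8 above 0 and 16 below, with a median of -0.068. Txnrd1, thioredoxin reductase, was the one of lowest p (0.0112), at -0.54 ± 0.20. Its knockout arrays ran from 8.47 through 9.43 to 9.97 and its wild-type arrays from 9.43 through 10.0 to 10.3, so the highest knockout arrays lay within the wild-type range. In smoke-exposed septa Txnrd1 differed by -0.18. The peroxide-reducing Srxn1 differed by -0.56 ± 0.35, whereas the superoxide dismutase Sod1 (-0.11 ± 0.10), catalase (Cat, 0.11 ± 0.13) and Gpx1 (-0.12 ± 0.12) had intervals within 0.4 log2 units of 0.

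Genes tied to emphysema and vessel disease gave few low p values. Among 21 proteases and inhibitors 8 were above 0, with a median of -0.03. Mmp12, the elastase of macrophages, had arrays from 1.12 through 2.31 to 6.11 in knockout and from 1.27 through 5.08 to 7.55 in wild-type septa, a difference of -1.78 ± 0.75 (p 0.0257) with wide overlap. In smoke-exposed septa Mmp12 differed by -0.19. The 29 extracellular matrix genes had a median of -0.06, with elastin (Eln) at 0.030 ± 0.43 and the basement membrane collagen Col4a2 at -0.40 ± 0.19. The nitric oxide and vasoactive list had 8 of 15 above 0 and a median of 0.016. There Nos2, the inducible nitric oxide synthase, differed by -0.48 ± 0.29, Nos3 of endothelium by 0.29 ± 0.41 and Ace, the angiotensin converting enzyme, by 0.016 ± 0.099. The Wnt and BMP list had a median of -0.038, inflammatory genes -0.075, interferon-stimulated genes 0.04, and apoptosis and p53 genes 0.11. Complement genes had 4 of 14 above 0 and a median of -0.20, with C3ar1 among the 4. That median was -0.031 without the 3 arrays of lowest correlation and -0.40 without knockout 8 months replicate 1.

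Other cell programmes showed small medians. Oxidative phosphorylation genes had 5 of 22 above 0 with a median of -0.051, and cell cycle genes 6 of 19 with a median of -0.20, which was 0.00 without the 3 arrays of lowest correlation. Of 18 circadian clock genes 14 were above 0, with a median of 0.22 (0.083 without knockout 8 months replicate 1) and no member at an unadjusted p under 0.05. Immediate early and heat shock genes had 15 of 21 above 0 and a median of 0.13, with Junb at -1.18 ± 0.54 and Nr4a2 at 1.07 ± 0.52. Antigen presentation genes had a median of -0.043, with the peptide transporter Tap1 at -0.95 ± 0.47. Among the values that moved by more than 1.5 times without the 3 arrays of lowest correlation were those of Gp9 (-0.73), Myl4 (0.57), Srxn1 (-0.35), Tap1 (-0.61), Cybb (0.09) and Ncf4 (-0.031). Without mice 7 and 29 such a move or a change of sign held for, among others, Duox2 (-0.31), Rac2 (0.026) and Ncf4 (0.048). It also held for the medians of inflammatory genes (-0.23) and ciliated cell markers (-0.011).

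**Figure D5:**
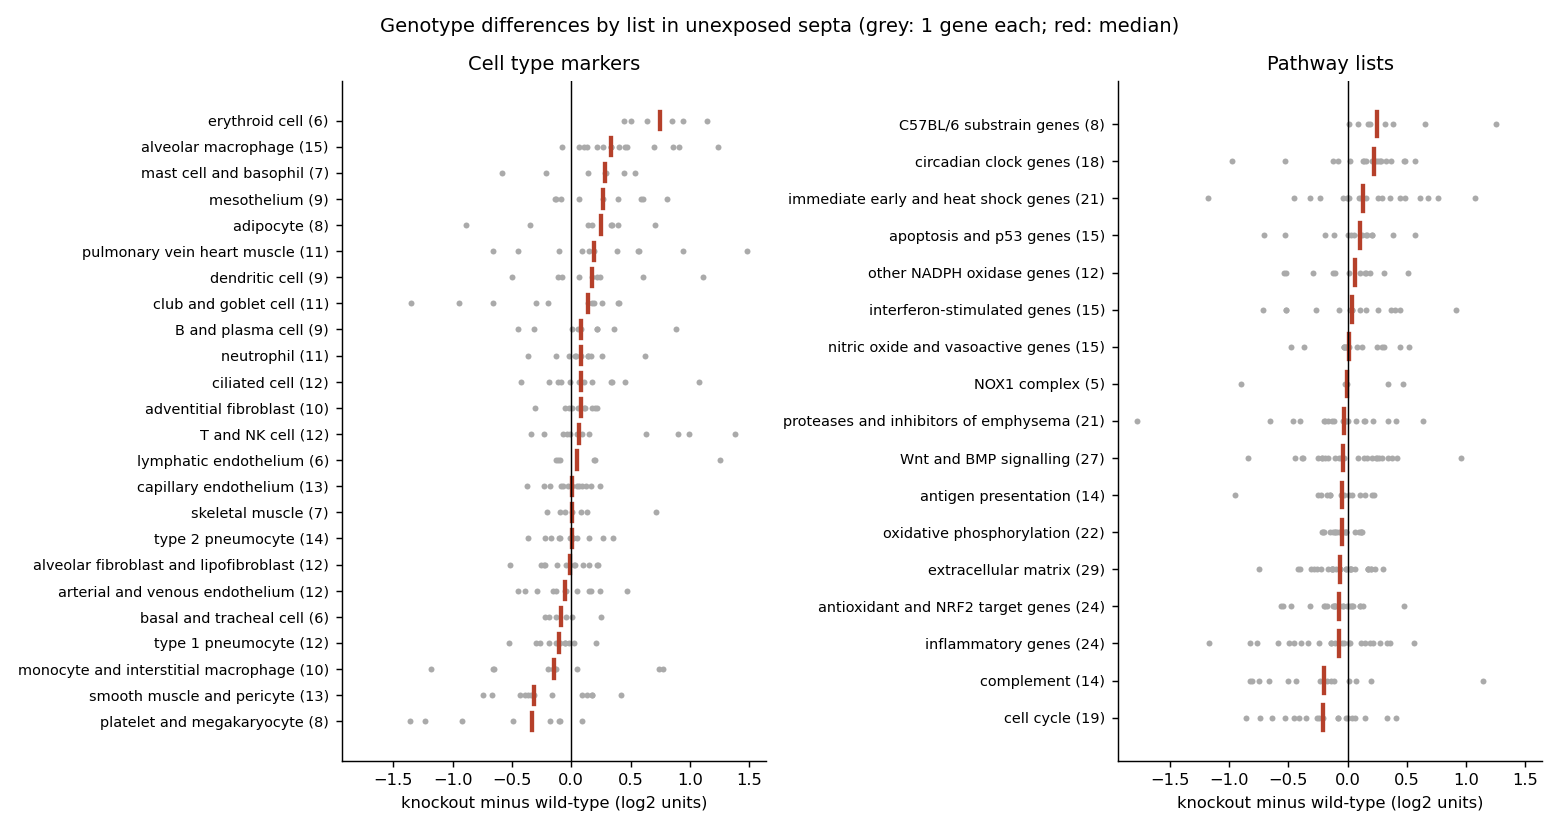
Knockout minus wild-type difference (x axis, log2 units) of every measured list member in unexposed septa, with 1 grey point per gene and a red bar at the list's median. The number of genes is in brackets, and the sex-linked list is not drawn. Of the lists drawn, erythroid genes have the median farthest from 0 (0.74, or 0.36 without wild-type 3 months replicate 3), and no point passed adjustment.

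Genes around the targeted locus were read because a line can keep sequence of the cells it was made in. Of the 15 genes on each side of Noxo1 in the RefSeq order, 22 of 30 were measured. They had 7 differences above 0 and 15 below, a median of -0.12 and a range from -0.80 (Nthl1, a DNA repair glycosylase) to 0.44 (Rab26), and none reached an unadjusted p under 0.05. The measured genes next to Noxo1 differed by -0.46 ± 0.54 (Gfer, a sulfhydryl oxidase) and by 0.36 ± 0.46 (Tbl3, a ribosome assembly factor). Rps2 differed by 0.20 ± 0.15 and Slc9a3r2 by -0.008 ± 0.12.

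Genes that differ between substrains of C57BL/6 were read as a check of background. Nnt, which part of these substrains lack, differed by 0.013 ± 0.22 with means of 9.20 and 9.19. All 8 measured substrain genes were above 0, with a median of 0.25. Mmrn1, a platelet and lymphatic protein that some substrains lack, ran from 5.36 through 6.46 to 7.38 in knockout and from 2.85 through 5.36 to 7.98 in wild-type arrays (1.25 ± 0.47, p 0.013). The wild-type arrays thus spanned the knockout range on both sides, and in smoke-exposed septa Mmrn1 differed by -0.37 and the list's median was -0.10.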

How the data were processed

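Per the labels, RNA of microdissected septa was isolated with RNeasy Micro, amplified (Ovation PicoSL WTA V2), dyed with Cy5 and hybridised to single-colour Agilent arrays, and 4 arrays without signal were left out. The values deposited by the authors were taken as log2 intensities, a scale read from their range of 0.94 to 15.79. The submitters' processing notes name limma without settings. The columns share their quartiles within 0.0024, so the values were used as deposited, and no source used here gives the background correction.

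Of 62976 features 31465 carry a symbol, 29036 of them were matched to RefSeq by accession, and 671 features with an empty cell were left out. Of the features of a gene, the one with the highest mean over all 76 arrays was kept, which gave 20710 genes. Differences were fitted with limma 3.58.1 (R 4.3.3; lmFit, eBayes with a trend) on 19 arrays with months as a factor, and by 4 group means for each time and the difference between times. P-values were adjusted by Benjamini and Hochberg over all genes with a threshold of 0.05. Single-gene p-values without "adjusted" are limma's unadjusted ones, and exact permutation tests are named where used. Exposed septa and unexposed vessels were fitted likewise, with the 2 vessel arrays of 1 mouse averaged. The scripts were tested on simulated data.

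Genes were picked among named genes with a mean above the receptor level in at least 1 genotype. They were the 10 of lowest p in each direction (none passed) and the 3 of lowest p for each time and for the difference between times. The NADPH oxidase genes and up to 2 members of each list were named too, above that level or not. Other list members were added after their values were seen. The lists and the genes on them were chosen with earlier results of these data known. Replicate numbers were checked as pairs: 2 of 9 same-numbered pairs had residuals correlating over 0.1 (range -0.058 to 0.16), and the labels give each array another mouse, so numbers were not used as a block. The labels give no slide, scan or batch. Array signals carry no counts, and the number of arrays limits the precision.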

Additional observations from a re-analysis of the deposited data

Results flagged for a closer look

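In 176 groups of 4 or 5 arrays (44 genes), 10 groups held 1 array whose gap to the next was a large share of the group's range by Dixon's test at 95%. Chance flags about 1 in 20 groups, or 8.8 of 176, so 10 is close to that number. Among the leading genes, Rabl6 was high in knockout 8 months replicate 5 (8.74, next 7.81) and Prg4 was low in knockout 3 months replicate 4 (2.48, next 4.37). Among the genes named for the times, Map3k6 was low in knockout 3 months replicate 2 (8.67, next 9.43). Ddc was high in knockout 3 months replicate 3 (5.45, next 5.18) and low in wild-type 3 months replicate 4 (2.83, next 5.27), where Odf3b was low too (5.06, next 6.52). Among NADPH oxidase genes, Nox1 was high in knockout 3 months replicate 4 (3.23, next 1.79), Cybb was low in knockout 8 months replicate 2 (8.45, next 9.76), Ncf4 was low in knockout 3 months replicate 3 (4.67, next 7.76), and Nox3 was high in wild-type 8 months replicate 2 (2.21, next 1.17). The Cybb value lies in the septa array of mouse 7, and without mice 7 and 29 Cybb differed by 0.039 in place of 0.15.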

How the results depend on the processing

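The count of called genes was 0 for genotype in unexposed septa, at 3 months, at 8 months and between the times under all 32 alternatives, among them other normalizations, filters, features, array weights, sex pattern as a covariate and leaving out each of the 19 arrays (lowest 0, highest 0). Counts for exposed septa were 0 without each array and, in an alternative chosen after seeing the data, with the sex pattern as a covariate. The Noxo1 difference stayed below 0 and did not pass adjustment (-1.13 to -0.63 without 1 array, -0.66 without the 3 arrays of lowest correlation, an alternative chosen after seeing the data). With a replicate block 0 genes were called, Noxo1 differed by -0.79 and no call changed, and the replicate numbers do not pair the mice. The neighbours' median ran from -0.20 to -0.065 without 1 array. Among genes whose mean over the 19 arrays was above the receptor level, 391, 305, 534 and 447 had an unadjusted limma p under 0.05. These counts are for the mean, 3 months, 8 months and between the times. Over all 20710 genes they were 772, 668, 982 and 846. Fewer genes were tested in the first set and its shares were not computed, so the counts are not like for like. Of 4100 comparisons of 129 gene values, counted as reversed only where the difference was at least its SE, 5 reversed. They were Ttll5 (0.68 with the feature brightest over the 19 arrays), Flt3 (-0.70 with that feature and -0.32 with the mean of all features), Wdfy1 (-0.11 with the mean of all features) and Ccl9 (0.045 without the 3 arrays). The cause was not tested. Most list medians moved with 1 array (41 of 42 by over 1.5 times or across 0). The lowest adjusted p of a leading gene under any alternative was 0.207. Genes near the receptor level have too little signal over background for small differences to show.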
